A study of Rattus norvegicus with 325 samples.

Results

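The comparison described here is the change in gene expression between 6 and 27 months of age in the gastrocnemius minus the same change in the diaphragm, in male rats of the outbred Sprague Dawley strain. Members were the libraries whose titles name either muscle at either age, 45 of 325 libraries in all. These were 12 diaphragm libraries at 6 months, 12 diaphragm libraries at 27 months, 10 gastrocnemius libraries at 6 months and 11 gastrocnemius libraries at 27 months. The study profiled 4 muscles at 7 ages by RNA sequencing (RNA-seq) of whole muscle tissue, and no treatment or genetic change is given in the labels for any group. By the study's methods every library of a group came from a separate animal, and the tissues of an age group were collected on the same day, so that age and collection day cannot be told apart. The labels do not say which diaphragm and gastrocnemius libraries came from the same rat. Only males were used, and whole tissue was sequenced, so fewer cells of a type and less RNA per cell cannot be told apart.

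The diaphragm is the main breathing muscle and contracts throughout life with a mixture of fibre types. The gastrocnemius is a calf muscle made largely of fast fibres that rely on glycolysis, and it is used for standing, walking and jumping. Limb muscles of old rodents lose mass and innervation, and fibres that have lost contact with their nerve switch on a known set of genes, including acetylcholine receptor subunits and growth arrest genes.

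Libraries held 19.4 to 85.3 M counts. The muscle labels fitted the positional genes. Hoxc10, a homeobox gene of the hind part of the body, measured 68.6, 77.8 and 98.7 CPM (counts relative to a library total adjusted by the trimmed mean of M values, TMM) in the lowest, median and highest gastrocnemius library at 6 months, and at most 0.159 CPM in the diaphragm at that age. The 10 most abundant genes took 26.5% to 32.6% of counts in the gastrocnemius at 6 months, 18.4% to 25.8% in the gastrocnemius at 27 months, and 16.1% to 20.1% in the 24 diaphragm libraries. Libraries of a group also differed from each other along a leading direction of spread. This library axis, computed from the 111 libraries of both muscles at 9, 12, 18, 21 and 24 months and so from none of the 45, held 26.2% of the spread within groups. Mean axis scores were 0.00 in the diaphragm at 6 months and -15.0 at 27 months, and -27.2 in the gastrocnemius at 6 months and -11.5 at 27 months. The axis therefore moved down with age in the diaphragm and up with age in the gastrocnemius. Its source was not tested. Values obtained with the axis score added to the fit are given beside the main results.

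More genes changed with age in the gastrocnemius than in the diaphragm, and few changed past the threshold in both muscles with opposite signs. A total of 11977 genes were tested with limma-voom. Calls needed an adjusted p below 0.05 (Benjamini-Hochberg) together with more than a 1.5-fold change. In the gastrocnemius 1666 genes were called higher at 27 months (13.9% of genes tested) and 977 lower (8.16%). In the diaphragm 873 genes were called (7.29%), 449 of them higher (3.75%) and 424 lower (3.54%). The difference between the changes was called for 2732 genes (22.8%), of which 1663 were higher in the gastrocnemius (13.9%) and 1069 lower (8.93%). A median standard error of 0.12 (log2) lay behind these differences, and the median size of a called difference was 0.85 (log2). Most called differences came from the gastrocnemius alone, with 850 genes called up and 643 called down there and not called in the diaphragm. Fewer came from the diaphragm alone, 47 up and 179 down. A further 112 rose and 15 fell in both muscles by unequal amounts, and 797 were called in neither muscle on its own. Estimates of the 2 muscles had opposite signs for 1839 of the 2732 (67.3%). Choosing genes on the difference itself favours opposite signs, and no share over all genes tested stands beside this one. In most of these genes the change in at least 1 muscle did not pass the threshold.

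Genes called in both muscles with opposite signs were few. In all, 78 genes rose in the gastrocnemius and fell in the diaphragm (0.651% of genes tested), and 11 fell in the gastrocnemius and rose in the diaphragm (0.0918%). With a looser rule that asked for an adjusted p under 0.05 but no fold threshold in the single muscles, 487 genes (4.07%) went up in the gastrocnemius and down in the diaphragm and 246 (2.05%) went the other way. The fold threshold set the edge of the smaller sets. Dkk2 lay just inside with changes of -0.59 in the gastrocnemius and 0.65 in the diaphragm (log2), while Nog lay just outside with -0.98 and 0.58. In no gene of the 89 were the libraries of the 2 ages apart, with no overlap, in both muscles at once. Across all genes tested the ages were apart in the gastrocnemius for 744 genes higher and 919 genes lower at 27 months, in the diaphragm for 152 higher and 169 lower, and in both muscles with opposite signs for 1 gene, Lamp1, named here after its values were seen. Lamp1 encodes an abundant glycoprotein of the lysosomal membrane. Its levels in the lowest, median and highest library, in CPM, were 428, 478 and 592 in the young and 345, 399 and 413 in the old gastrocnemius, and 396, 421 and 450.2 in the young and 454, 513 and 544 in the old diaphragm. Small but separate shifts of -0.35 and 0.26 (log2) gave a difference of -0.61 ± 0.07 (SE), so that the muscles exchanged their order with age. With total-count scaling in place of TMM its changes were -0.04 and 0.26, while all 89 genes kept opposite signs in the 2 muscles. When the axis score was added, 1475 differences were called, 960 higher (8.02% of genes tested) and 515 lower (4.3%), and 14 genes were called in opposite directions, 7 each way.

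**Figure D1:**
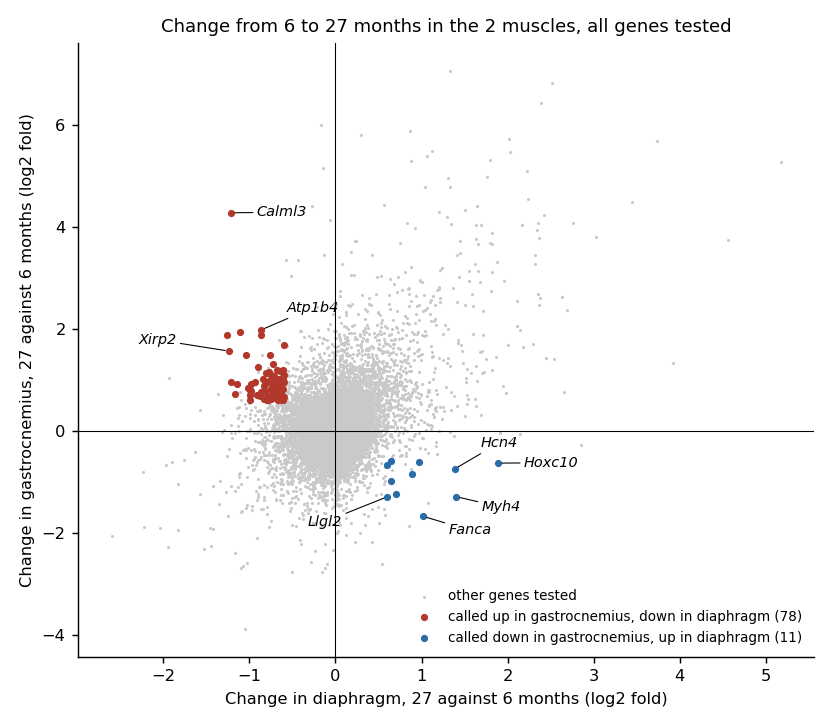
Each point is 1 of the 11977 genes tested, with its log2 change from 6 to 27 months in the diaphragm on the horizontal axis and in the gastrocnemius on the vertical axis. The 78 genes called up in the gastrocnemius and down in the diaphragm lie in the upper left corner, the 11 called the other way in the lower right, and the cloud is wider along the gastrocnemius axis.

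Xirp2 was the most abundant of the genes that rose in the gastrocnemius and fell in the diaphragm. It encodes a Xin-repeat protein that binds actin filaments at the fibre's attachment sites. Levels were 1452, 5185 and 11550.2 CPM (lowest, median and highest library) in the gastrocnemius at 6 months and 8393, 16209 and 22782 CPM at 27 months. In the diaphragm it measured 11231, 12439.9 and 15429.5 CPM at 6 months and 3500.0, 4567 and 12923 CPM at 27 months. Every young diaphragm library lay above the median of the old ones, every old gastrocnemius library lay above the median of the young ones, and the ages overlapped in both muscles. The change was 1.57 ± 0.27 (log2, SE) in the gastrocnemius (limma-voom, Benjamini-Hochberg adjusted p = 2.11e-06), while the diaphragm changed by -1.24 ± 0.25 (adjusted p = 0.000115). The difference between them was 2.81 ± 0.37 (adjusted p = 2.75e-08), and 1.24 with the axis score in the fit (limma-voom, Benjamini-Hochberg adjusted p = 0.000161).

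Atp1b4 encodes a muscle protein of the Na,K-ATPase beta subunit family that sits in the inner nuclear membrane of placental mammals. In the gastrocnemius it measured 3.97, 11.5 and 19.1 CPM at 6 months and 22.1, 32.9 and 77.5 CPM at 27 months. Diaphragm levels were 45.8, 53.6 and 80.8 CPM at 6 months and 17.0, 29.9 and 59.3 CPM at 27 months. Every old gastrocnemius library lay above every young one, while the ages overlapped in the diaphragm. The difference between the muscles was 2.85 ± 0.30 (log2, limma-voom, Benjamini-Hochberg adjusted p = 4.33e-10), from 1.99 in the gastrocnemius and -0.86 in the diaphragm, and 1.55 with the axis score. Calml3, a relative of calmodulin, had the largest difference of the 78. Its gastrocnemius levels were 0.18, 0.512 and 1.29 CPM at 6 months and 3.61, 8.92 and 36.3 CPM at 27 months, and its diaphragm levels were 0.626, 2.96 and 6.19 and 0.222, 0.751 and 4.84 CPM. Old gastrocnemius libraries were all above the young ones, and the diaphragm libraries overlapped widely. The fitted difference was 5.49 ± 0.81 (limma-voom, Benjamini-Hochberg adjusted p = 2.79e-07), and 4.59 with the axis score. Calml3 passed narrowly in the diaphragm, at -1.21 ± 0.50 (limma-voom, Benjamini-Hochberg adjusted p = 0.0483), and its change there was -0.76 with the axis score.

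The sequence before the transcription start is shown for muscle genes with some of the largest differences in each direction, Xirp2 and Atp1b4 here and Myh4 further on, since it is the region where control of their transcript levels begins. Each is the 250 bases before the RefSeq start, outside the transcribed region, read 5′ to 3′ on the gene's strand from the rat build GRCr8, a later build than the one the reads were counted on. Capitals mark motifs found on either strand, namely the E-box (CANNTG, bound by myogenic factors among others), the TATA box (TATAAA), the CCAAT box (CCAAT), the heat shock element (GAANNTTC), the MEF2 site and the CArG box of serum response factor. The Xirp2 promoter lies at chr3:72533936-72534185 on the plus strand and the Atp1b4 promoter at chrX:121952727-121952976 on the plus strand.
Xirp2: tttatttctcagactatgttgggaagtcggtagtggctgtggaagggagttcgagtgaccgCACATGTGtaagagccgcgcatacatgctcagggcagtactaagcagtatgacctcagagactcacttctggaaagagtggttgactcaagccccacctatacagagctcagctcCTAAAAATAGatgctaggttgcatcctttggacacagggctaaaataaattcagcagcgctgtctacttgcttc
Atp1b4: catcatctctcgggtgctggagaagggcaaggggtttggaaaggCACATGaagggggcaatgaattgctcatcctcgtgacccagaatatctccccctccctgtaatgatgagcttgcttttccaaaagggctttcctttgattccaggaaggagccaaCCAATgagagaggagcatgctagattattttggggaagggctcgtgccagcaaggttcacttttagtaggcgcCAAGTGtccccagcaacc
The Xirp2 window held a pair of overlapping E-boxes, CACATG and CATGTG, between 189 and 182 bases before the start, and a MEF2 site, CTAAAAATAG, between 74 and 65 bases before it. The Atp1b4 window held the E-boxes CACATG and CAAGTG, which begin 206 and 18 bases before the start, and a CCAAT box at 91 to 87 bases before it. Of the 9665 tested genes with a promoter in the table, 56.9% held an E-box, 2.82% a MEF2 site and 34.9% a CCAAT box in the same window. The table held a promoter for 62 of the 78 genes and 6 of the 11, the latter too few for a count of motifs. Of the 62, 58.1% held an E-box, 1.61% a MEF2 site and 43.5% a CCAAT box. A TATA box was in 14.5% of the 62 and 6.78% of the 9665. These shares were not tested against each other.

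Secreted, matrix and receptor proteins among the 78 are described next, set side by side for their roles after their values were seen. Of 25 matrix glycoproteins and proteoglycans listed 1 was called in opposite directions, and of 11 fibrillar and related collagens none was. Ogn, osteoglycin, a small leucine-rich proteoglycan of the matrix, measured 53.9, 97.0 and 145 CPM in the gastrocnemius at 6 months and 107, 138 and 242 CPM at 27 months. The diaphragm had 323, 367 and 436 CPM at 6 months and 125, 177 and 358 CPM at 27 months. Old diaphragm libraries were below the young ones except where the highest of them reached into the young range. The changes were 0.70 ± 0.15 and -0.99 ± 0.15 (log2), and their difference 1.70 ± 0.21 (limma-voom, Benjamini-Hochberg adjusted p = 1.13e-08), or 0.82 with the axis score. Npr3, the clearance receptor of natriuretic peptides, measured 2.90, 4.14 and 6.74 CPM in the young and 2.95, 6.81 and 12.6 CPM in the old gastrocnemius. It measured 6.38, 9.11 and 12.4 CPM in the young and 3.06, 3.78 and 6.59 CPM in the old diaphragm. The diaphragm ages overlapped only between 6.38 and 6.59 CPM. The difference was 1.90 ± 0.24 (limma-voom, Benjamini-Hochberg adjusted p = 1.47e-08), or 1.51 with the axis score.

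Gulp1, an adaptor for the engulfment of dying cells, gave the smallest adjusted p of the 78. It measured 7.56, 13.2 and 14.9 CPM in the young gastrocnemius and 22.3, 25.7 and 41.6 CPM in the old, with no overlap. Diaphragm libraries had 30.2, 35.5 and 39.2 CPM at 6 months and 16.04, 22.8 and 32.2 CPM at 27 months, with a small overlap. The changes of 1.19 ± 0.12 and -0.68 ± 0.10 (log2) differed by 1.87 ± 0.16 (limma-voom, Benjamini-Hochberg adjusted p = 3.49e-12), and by 1.14 with the axis score. Igsf10, a secreted immunoglobulin-domain protein, held its difference with the axis score, 1.81 against 1.86 ± 0.26 without it. It fell from a median of 34.6 to 20.9 CPM in the diaphragm and rose from 7.26 to 14.6 CPM in the gastrocnemius. Hbegf, a growth factor of the epidermal growth factor family, did the same, with 2.17 ± 0.49 without and 2.61 with the score. A single young diaphragm library had 103 CPM of Hbegf beside a median of 7.68 CPM, and the difference was 1.77 without that library. Lpar4, a receptor for lysophosphatidic acid, and Htr2b, a serotonin receptor, had differences of 1.76 ± 0.29 and 1.46 ± 0.38.

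Hsp90aa1, Eif2ak2 and Eif3a, which act in stress and translation, are described side by side for their roles, with no theme tested, and of 29 heat shock and chaperone genes listed 1 was called in opposite directions. Hsp90aa1, the inducible form of the chaperone Hsp90, measured 43.5, 123 and 177 CPM in the gastrocnemius at 6 months and 154, 194 and 229 CPM at 27 months. Its diaphragm levels were 313, 363 and 587 CPM at 6 months and 163, 233 and 465.8 CPM at 27 months. The old gastrocnemius came close to the level of the old diaphragm, and the ages overlapped in both. Its difference was 1.43 ± 0.23 (limma-voom, Benjamini-Hochberg adjusted p = 1.39e-06), and 0.42 with the axis score, below the fold threshold. Eif2ak2, the kinase PKR that senses double-stranded RNA and halts translation, measured 7.11, 18.2 and 28.2 CPM in the young and 23.2, 26.3 and 28.2 CPM in the old gastrocnemius. Diaphragm levels were 19.4, 22.9 and 30.5 CPM at 6 months and 7.51, 12.4 and 22.6 CPM at 27 months. The spread of the young gastrocnemius took in nearly the whole range of the old. A difference of 1.42 ± 0.24 without the axis score compares with 0.28 with it (limma-voom, Benjamini-Hochberg adjusted p = 0.178). Eif3a, a core subunit of the translation initiation factor eIF3, had 1.58 ± 0.24 and 0.46.

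Further members, set side by side for their roles with no theme tested, encode proteins of the nucleus, the chromosomes and the cytoskeleton. Among those that act in dividing cells, Cenpf, a kinetochore protein, measured 0.037, 0.538 and 1.05 CPM in the young and 0.776, 1.56 and 3.32 CPM in the old gastrocnemius, and 0.477, 0.854 and 1.59 and 0.185, 0.526 and 1.48 CPM in the diaphragm. Its levels were low in every group, and the difference was 2.75 ± 0.47 (limma-voom, Benjamini-Hochberg adjusted p = 4.04e-06), or 1.89 with the axis score. Sgol2, which protects the cohesion of sister centromeres, was far more abundant in the young diaphragm than in the young gastrocnemius, at medians of 12.7 against 0.278 CPM. By 27 months the medians were 6.22 and 0.908 CPM, a difference of 2.53 ± 0.49, or 1.26 with the axis score. Ccne2, cyclin E2, had 1.38 ± 0.24, and 0.64 with the axis score (limma-voom, Benjamini-Hochberg adjusted p = 0.0583). Mybl1, a transcription factor of the Myb family, had 2.28 ± 0.33, and 1.06 with the axis score. Tpr, of the nuclear pore basket, measured 46.8, 123 and 199 CPM in the gastrocnemius at 6 months and 156, 203 and 245 CPM at 27 months, and 230.4, 257 and 277 and 90.1, 131 and 241 CPM in the diaphragm. In the diaphragm the old range met the young one only at its top. Its difference of 1.61 ± 0.25 became 0.43 with the axis score. The nuclear cyclophilin Ppig fell in the diaphragm with no overlap between ages, from 52.1, 58.8 and 63.5 to 15.7, 26.4 and 50.7 CPM, and its difference of 1.87 ± 0.29 became 0.45. Others of this kind were the structural maintenance of chromosomes genes Smc2 and Smc5, the cohesin subunit Stag2, the repair gene Rad50, topoisomerase Top1, the ciliary gene Cep290, the kinesin Kif5b and the kinase Rock1, with differences between 1.28 for Stag2 and 2.06 for Cep290. With the axis score the difference of Cep290 was 0.36 and not called (limma-voom, Benjamini-Hochberg adjusted p = 0.542). Idi1, an enzyme of cholesterol synthesis, had 1.62 ± 0.27.

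The library axis moved with these genes. Of the 78, 53 were abundant enough to enter the axis, all 53 had a positive loading, and their median loading was at the 99.2 percentile of the 8692 genes in it, where 45.8% of genes were positive. Median changes of the 78 were 0.84 in the gastrocnemius and -0.75 in the diaphragm (log2), beside 0.02 and 0.05 for all genes tested. With the axis score in the fit these medians were 0.29 and -0.25, the difference was still called for 24 of the 78, and 3 remained called in both muscles with opposite signs, namely Col17a1, Hbegf and Igsf10. Col17a1 was low, with medians between 0.241 and 0.741 CPM. How much of the change in the 78 goes with the axis and how much with age was not tested beyond these fits.

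**Figure D2:**
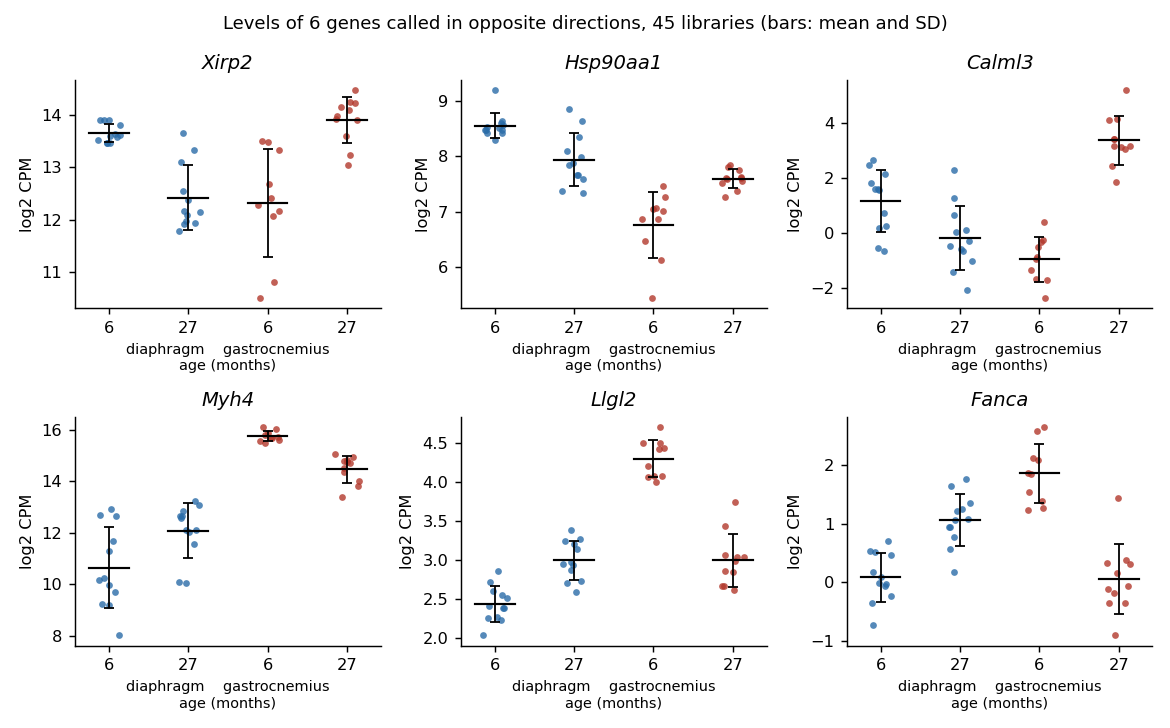
Each panel shows 1 gene, with a point for every library's log2 CPM in the diaphragm and gastrocnemius at 6 and 27 months and bars for the mean and SD of each group. Xirp2, Hsp90aa1 and Calml3 are lower in the old diaphragm and higher in the old gastrocnemius, and Myh4, Llgl2 and Fanca show the reverse.

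The 11 genes that fell in the gastrocnemius and rose in the diaphragm held a myosin, a polarity gene, a repair gene and ion channel, transport and signalling genes. Myh4 encodes the IIB myosin heavy chain of the fastest fibres. It measured 45892, 53470.0 and 69655 CPM in the gastrocnemius at 6 months and 10607, 26609 and 33789 CPM at 27 months. In the diaphragm it measured 261, 1193 and 7809.8 CPM at 6 months and 1073, 5243 and 9745 CPM at 27 months. Every old gastrocnemius library was below every young one, and in the diaphragm the ages overlapped over most of their range. The change was -1.29 ± 0.51 in the gastrocnemius and 1.40 ± 0.40 in the diaphragm (log2). Their difference was -2.69 ± 0.65 (limma-voom, Benjamini-Hochberg adjusted p = 0.000534), or -2.50 with the axis score (adjusted p = 0.0235). The medians thus moved toward each other, and the old gastrocnemius still held more Myh4 than any diaphragm library. Its window before the start lies at chr10:52421898-52422147 on the plus strand of GRCr8.
Myh4: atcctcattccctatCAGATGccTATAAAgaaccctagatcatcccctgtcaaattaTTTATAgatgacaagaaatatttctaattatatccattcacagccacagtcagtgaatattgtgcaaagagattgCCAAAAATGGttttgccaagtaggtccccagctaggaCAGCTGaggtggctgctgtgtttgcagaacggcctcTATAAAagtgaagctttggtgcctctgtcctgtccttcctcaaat
This window held the E-boxes CAGATG and CAGCTG, beginning 235 and 81 bases before the start, 3 TATA boxes, of which the nearest began 45 bases before it, and a CArG box, CCAAAAATGG, at 118 to 109 bases. A TATA box was in 6.78% and a CArG box in 1.13% of the 9665 windows.

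Llgl2, a cell polarity gene, gave the smallest adjusted p of the 11. It measured 15.9, 19.9 and 25.9 CPM in the young and 6.10, 7.94 and 13.3 CPM in the old gastrocnemius, with no overlap. Diaphragm levels were 4.09, 5.25 and 7.25 CPM at 6 months and 6.00, 7.75 and 10.4 CPM at 27 months, so that the old muscles came to nearly the same median. The changes of -1.29 ± 0.11 and 0.60 ± 0.12 (log2) differed by -1.89 ± 0.16 (limma-voom, Benjamini-Hochberg adjusted p = 3.49e-12), and by -1.56 with the axis score. Fanca, of the Fanconi anaemia complex for DNA crosslink repair, measured 2.34, 3.63 and 6.23 CPM in the young and 0.52, 0.942 and 2.69 CPM in the old gastrocnemius. The diaphragm held 0.588, 1.01 and 1.62 CPM at 6 months and 1.12, 2.09 and 3.37 CPM at 27 months. The young gastrocnemius and the old diaphragm were the higher group of their muscle, with overlap in both. The difference was -2.69 ± 0.31 (limma-voom, Benjamini-Hochberg adjusted p = 2.71e-09), and -2.18 with the axis score.

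Hcn4, a pacemaker channel, measured 1.403, 3.58 and 5.29 CPM in the young and 1.18, 1.92 and 3.31 CPM in the old gastrocnemius, and 0.467, 0.935 and 1.91 and 1.77, 2.20 and 3.66 CPM in the diaphragm. The diaphragm ages barely overlapped and the gastrocnemius ages did so widely. The difference was -2.13 ± 0.31 (limma-voom, Benjamini-Hochberg adjusted p = 3.01e-07). Tox2, a transcription factor with a high mobility group box, had medians of 1.97 and 1.01 CPM in the young and old gastrocnemius and 1.04 and 1.83 CPM in the diaphragm, with a difference of -1.75 ± 0.26. Lgi1, a secreted leucine-rich repeat protein, measured 5.07, 6.76 and 9.10 CPM in the young and 1.96, 3.19 and 11.6 CPM in the old gastrocnemius, and 7.55, 11.2 and 17.7 and 14.1, 22.6 and 34.4 CPM in the diaphragm. The highest old gastrocnemius library exceeded all young ones, against the direction of its group. Its difference was -1.58 ± 0.29. Slc2a5, the fructose transporter, had -1.63 ± 0.28, Dkk2, a secreted regulator of Wnt signalling, -1.24 ± 0.29, Arrdc2, an arrestin-domain protein, -1.94 ± 0.40, and Aifm3, of the apoptosis-inducing factor family, -1.26 ± 0.27. Hoxc10 fell from 68.6, 77.8 and 98.7 to 44.4, 51.4 and 58.9 CPM in the gastrocnemius. In the diaphragm 8 of 12 young libraries had no Hoxc10 count, the young group held 11 counts in all and the old group 56, so that its fitted rise there depends on the prior count.

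These genes were placed otherwise on the library axis. Of the 11, 6 entered it, 3 with a positive loading, at a median percentile of 45.5. Median changes of the 11 were -0.85 in the gastrocnemius and 0.89 in the diaphragm, and -0.73 and 0.79 with the axis score. All 11 differences stayed called with the score, and Dkk2, Fanca, Lgi1 and Tox2 stayed called in both muscles with opposite signs. With total-count scaling in place of TMM, 4 genes in all were called down in the gastrocnemius and up in the diaphragm. The gastrocnemius changes of Dkk2, Lgi1 and Tox2 were then -0.29, -0.30 and -0.56 (log2), under the fold threshold. That of Fanca was -1.365.

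**Figure D3:**
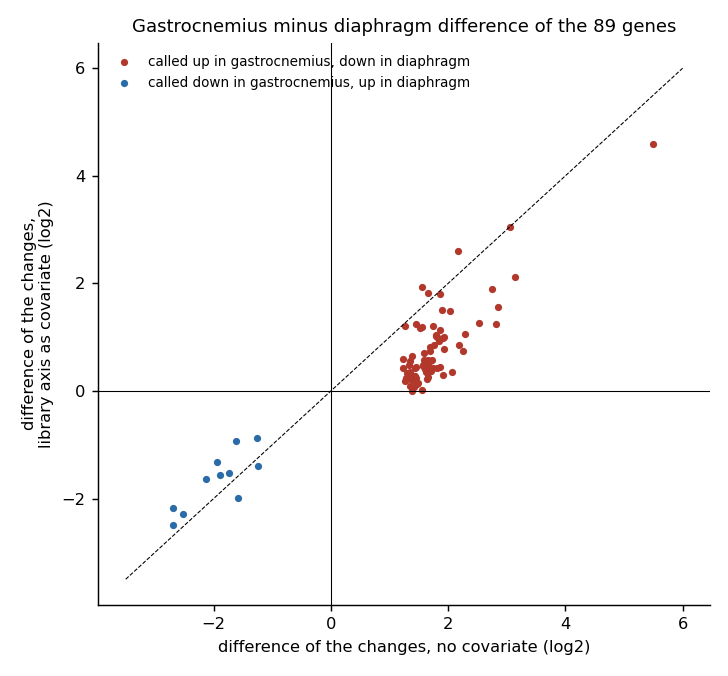
Each point is 1 of the 89 genes called in opposite directions, with the gastrocnemius minus diaphragm difference (log2) without a covariate on the horizontal axis and with the library axis score as covariate on the vertical axis. The dashed line marks equal values. Most of the 78 genes on the right lie well below it, at a median of 0.56 against 1.63, and the 11 genes on the left lie near it, at -1.56 against -1.89.

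Libraries of 9 and 24 months, 44 in number and none of them among the 45, allowed the same difference to be tested in libraries that had no part in the choice of the genes. The difference was called for 1361 of 12005 genes (11.3%), 795 higher in the gastrocnemius (6.62%) and 566 lower (4.71%). Of the 78 genes, 76 had the sign they had between 6 and 27 months, 53 were called with it and none against it. The 2 with the other sign were Bai1 and Col17a1, at -0.21 ± 0.54 and -0.45 ± 0.48 (log2). Their median change was 0.70 in the gastrocnemius and 0.01 in the diaphragm, where 1 of the 78 was called down. Of the 11 genes, all had the same sign and 9 were called, with medians of -0.81 in the gastrocnemius and 0.33 in the diaphragm. Only 2 genes of all tested were called in opposite directions between 9 and 24 months, Tox2 and Oas1k, of the interferon-induced oligoadenylate synthetases, both down in the gastrocnemius and both named for this result. The difference was 1.27 ± 0.37 for Xirp2, 1.71 ± 0.22 for Atp1b4, 4.00 ± 0.68 for Calml3 and -1.37 ± 0.20 for Llgl2 (log2). For Myh4 it was -1.06 ± 0.55, not called (limma-voom, Benjamini-Hochberg adjusted p = 0.126). Igsf10, which had stayed opposite with the axis score, had 1.06 ± 0.25 and was called. Hbegf, which had also stayed so, had 0.62 ± 0.32 and was not called (limma-voom, Benjamini-Hochberg adjusted p = 0.123). Mean axis scores were -25.5 and -7.82 in the gastrocnemius at 9 and 24 months and 0.33 and 0.43 in the diaphragm, so the axis moved in the gastrocnemius only. Of the looser sets, 483 of 487 and 235 of 246 kept their sign, 132 and 44 were called with it, and the diaphragm medians were 0.00 and 0.02.

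Levels over the 7 ages are a description, since both sets were chosen on the values at 6 and 27 months, a choice that favours extreme means at those ages. The mean level of the 78 genes in the diaphragm was 3.69 log2 CPM at 6 months, between 3.31 and 3.67 from 9 to 24 months with the lowest value at 18 months, and 2.89 at 27 months. The axis score of the diaphragm was lowest at those 2 ages, -8.50 at 18 months and -15.0 at 27 months. In the gastrocnemius the 78 genes stood at 2.46 log2 CPM at 6 months, between 2.48 and 2.73 from 9 to 21 months, and at 3.30 and 3.46 at 24 and 27 months. Xirp2 followed this course, with gastrocnemius medians of 11.91 log2 CPM at 21 months and 13.92 at 24 months, and diaphragm medians of 13.48 at 24 months and 12.15 at 27 months. Calml3 did not, since its diaphragm median fell from 1.56 log2 CPM at 6 months through 0.42 at 12 months to -0.39 at 27 months. The mean level of the 11 genes in the diaphragm was 1.51 log2 CPM at 6 months, 1.79, 1.92 and 2.37 at 9, 12 and 18 months and 2.47 at 27 months. In the gastrocnemius they stayed between 3.92 and 4.08 until 21 months and were at 3.11 and 2.99 at 24 and 27 months. For Myh4 the diaphragm median was 10.22 log2 CPM at 6 months and 11.64 to 12.53 at every later age.

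**Figure D4:**
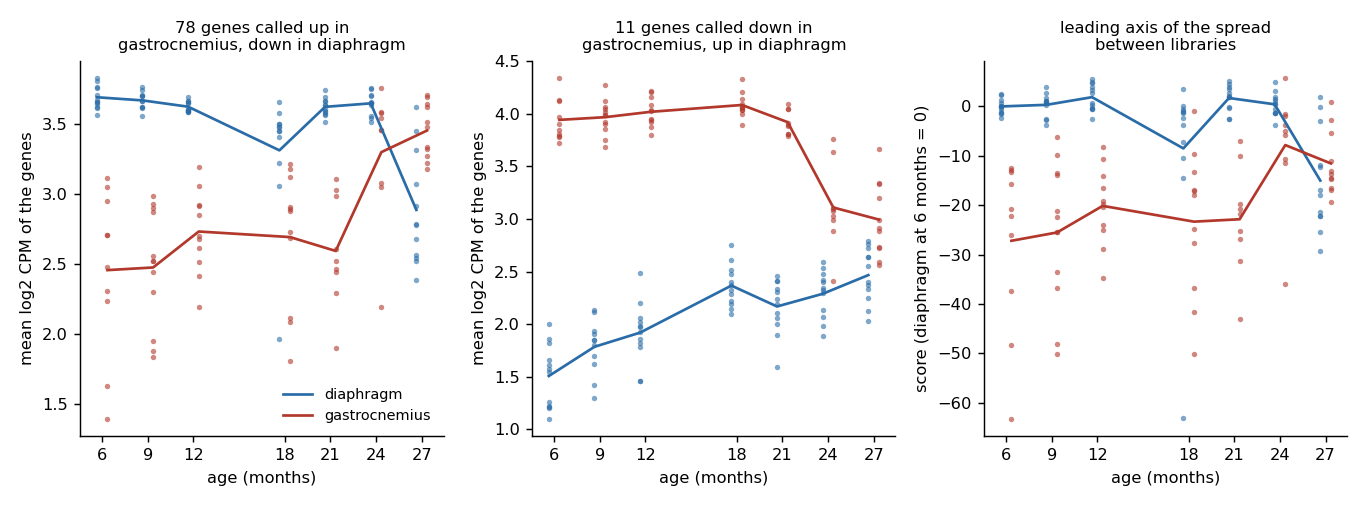
The first panels show the mean log2 CPM over the 78 and the 11 genes in every library of both muscles by age in months, and the last shows the library axis score. For the 78 genes, chosen for a low diaphragm level at 27 against 6 months, the diaphragm mean is lowest at 27 and next lowest at 18 months, and so is its axis score.

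The other muscles of the study were tested over the same ages. Between 6 and 27 months 77 of the 78 genes could be tested in the soleus, a slow calf muscle, and the tibialis anterior, a fast shin muscle. Of these, 3 rose and 4 fell in the soleus, where 9.27% and 5.99% of all genes did, and 11 rose and 6 fell in the tibialis anterior, where 16.5% and 10.3% did. Of the 11 genes, 1 rose and 3 fell in the soleus, and none rose and 5 fell in the tibialis anterior, the direction of the gastrocnemius. Median changes were -0.21 (soleus) and -0.10 (tibialis anterior) for the 78 genes and 0.13 and -0.66 for the 11. Myh4 changed by 3.06 and -1.51 (log2) in the same order, and Calml3 by 2.74 and 3.74.

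Functions were read from 60 gene lists, described by their counts. Those counts are to be read against the shares of all genes tested, which were 13.9% up and 8.16% down in the gastrocnemius, 3.75% up and 3.54% down in the diaphragm, and 13.9% higher and 8.93% lower for the difference. Glycolysis, glycogen, respiratory chain and fast sarcomere genes had many members down in the gastrocnemius. Few were called in the diaphragm, except for glycogen genes, of which 3 of 18 fell there. Genes of fatty acid uptake and oxidation had few members called, with 1 of 28 up and 1 down in each muscle. Of 6 ketone body genes, 1 rose in each muscle and none was called down, at median changes of -0.39 in the gastrocnemius and 0.13 in the diaphragm. Their difference was lower for 2 and higher for none, and was called for 0 with total-count scaling. Of 22 glycolysis genes tested, 14 fell and 1 rose in the gastrocnemius, none rose and 1 fell in the diaphragm, and 14 had a lower difference, where 8.93% of all genes did. Their median change was -0.85 in the gastrocnemius and 0.07 in the diaphragm. No glycolysis gene had a higher difference in this fit, but with the axis score 11 had a lower and 3 a higher one. Pfkm, the muscle phosphofructokinase, measured 3001, 3273 and 4442 CPM in the young and 722, 1229 and 2294 CPM in the old gastrocnemius. Diaphragm levels were 1051, 1199 and 1375 CPM at 6 months and 968, 1405 and 1577 CPM at 27 months. All old gastrocnemius libraries were below all young ones and came into the range of the diaphragm. The difference was -1.53 ± 0.16 (limma-voom, Benjamini-Hochberg adjusted p = 1.84e-10), and -1.18 with the axis score. Gpi, glucose-6-phosphate isomerase, had -1.41 ± 0.17. Scaling to total counts in place of TMM raised the median change of all genes to 0.32 in the gastrocnemius. In the diaphragm this median stayed at 0.04. With that scaling 10 glycolysis genes fell in the gastrocnemius, 11 had a lower difference and 2 a higher one. Glycogen genes followed in counts, with 9 of 18 down in the gastrocnemius and 3 in the diaphragm, but their median difference of -0.27 became 0.04 with total-count scaling.

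Fast sarcomere genes gave 8 of 14 down in the gastrocnemius and 9 with a lower difference, Myh4 being the only one that rose in the diaphragm. Median changes were -0.60 and 0.09, and 8 differences were lower with the axis score and 6 with total-count scaling. Mylk2, the skeletal muscle myosin light chain kinase, measured 1363, 1603 and 2409.5 CPM in the young and 241, 396 and 739 CPM in the old gastrocnemius, and 259, 363 and 435 and 186, 372 and 473 CPM in the diaphragm. The young gastrocnemius stood apart from the other groups, and the difference was -2.01 ± 0.18 (limma-voom, Benjamini-Hochberg adjusted p = 1.59e-11). Slow sarcomere genes gave 2 higher and 4 lower differences among 14, and 2 and 0 with total-count scaling.

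Oxidative metabolism depended more on the processing. Of 34 complex I genes tested, 15 fell in the gastrocnemius and none in the diaphragm, and 21 had a lower difference, at median changes of -0.57 and 0.07. Of 40 genes of complexes II to V, 16 fell in the gastrocnemius, 1 fell in the diaphragm and 19 had a lower difference, at medians of -0.46 and 0.07. With the axis score 2 and 7 lower differences were called, and with total-count scaling 1 and 2, at gastrocnemius medians of -0.26 and -0.16. The gastrocnemius medians of both lists stayed below 0 in these fits, while the diaphragm medians were -0.02 and -0.04 with the axis score. Cox6a2, the muscle form of a cytochrome oxidase subunit, was the member nearest to an opposite change. It measured 1534, 1955 and 2486 CPM in the young and 1034, 1271 and 1653 CPM in the old gastrocnemius. In the diaphragm it measured 981, 1124 and 1371 CPM at 6 months and 1417, 1558 and 1702 CPM at 27 months, with every old library above every young one. The difference was -1.08 ± 0.11 (limma-voom, Benjamini-Hochberg adjusted p = 8.12e-11), and -0.92 with the axis score. Citric acid cycle genes had 8 of 19 lower differences and mitochondrial ribosomal proteins 12 of 69, with 1 and 0 under total-count scaling. Cytosolic ribosomal proteins had 1 of 68 called, and the proteasome 2 higher and 1 lower of 31. Esrra, a nuclear receptor that drives mitochondrial genes, had -0.71 ± 0.16, and -0.20 with the axis score (limma-voom, Benjamini-Hochberg adjusted p = 0.323).

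**Figure D5:**
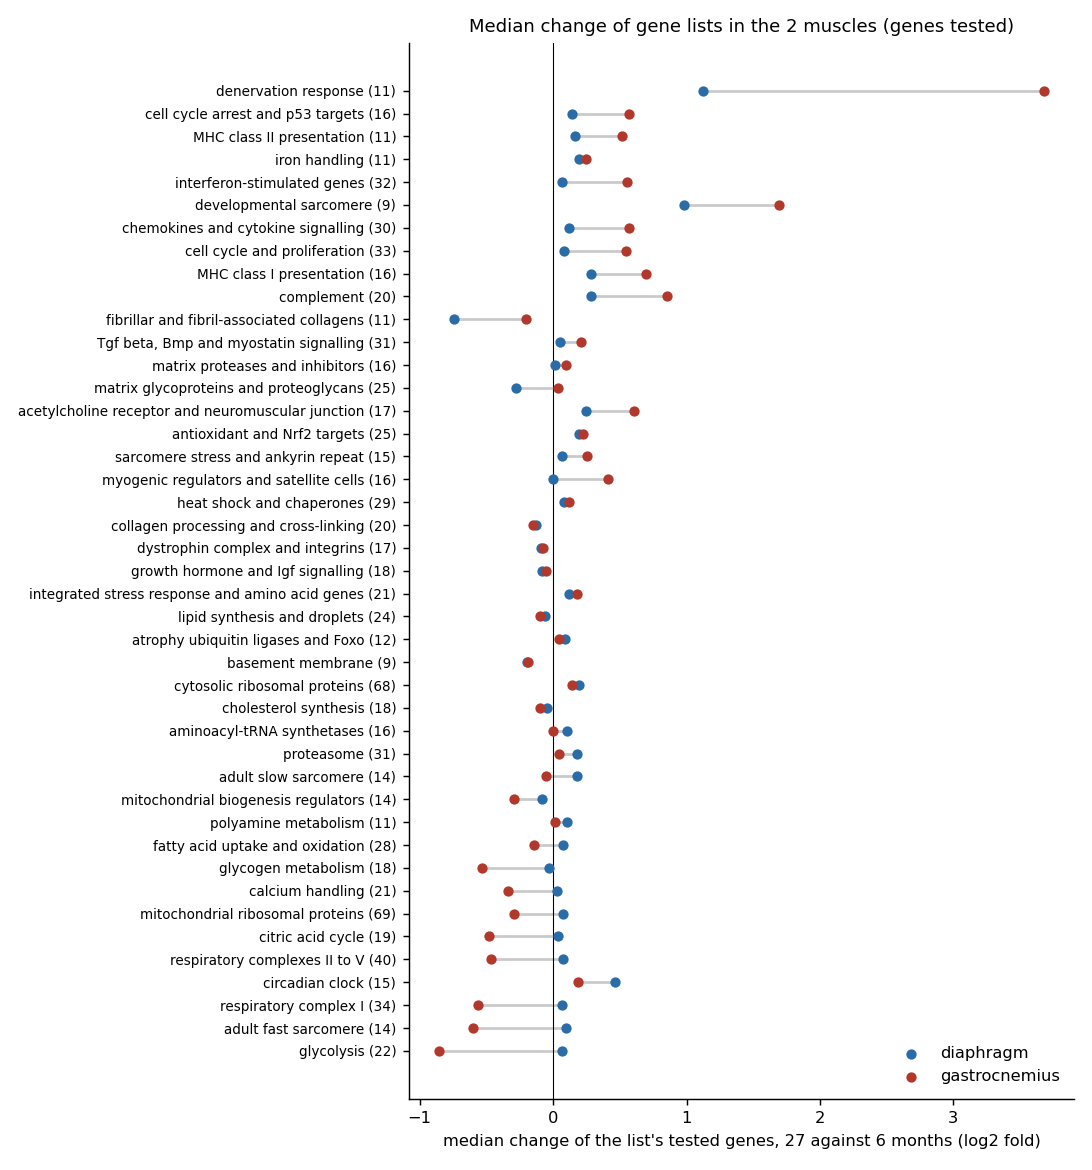
Points give the median log2 change from 6 to 27 months of each list's tested genes in the diaphragm and the gastrocnemius, for lists of function with at least 9 genes tested. Glycolysis, the fast sarcomere and the respiratory chain lie below 0 in the gastrocnemius and near 0 in the diaphragm, and denervation genes lie above 0 in both.

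Denervation genes rose in both muscles. Of 11 tested, 10 rose in the gastrocnemius, 9 in the diaphragm and 10 had a higher difference, at medians of 3.68 and 1.13. Chrnd, the delta subunit of the acetylcholine receptor, measured 8.77, 10.4 and 13.9 CPM in the young and 58.5, 109.5 and 146 CPM in the old gastrocnemius. The diaphragm held 15.4, 18.4 and 22.9 CPM at 6 months and 39.5, 64.1 and 129 CPM at 27 months. The ages were apart in both muscles, and the difference was 1.45 ± 0.23 (limma-voom, Benjamini-Hochberg adjusted p = 1.49e-06). Musk, the receptor kinase of the neuromuscular junction, had 2.34 ± 0.27 and Ncam1, a cell adhesion molecule, 1.99 ± 0.21. Sln, sarcolipin, an inhibitor of the calcium pump, rose from 0.504, 1.67 and 2.34 to 39.0, 79.1 and 129 CPM in the gastrocnemius and from 11.5, 15.1 and 26.3 to 25.5, 33.4 and 48.6 CPM in the diaphragm. Both the young and the old gastrocnemius lay outside the diaphragm range of the same age for most libraries, below it when young and above it when old. The difference was 4.37 ± 0.34. Developmental sarcomere genes rose in both, 6 and 5 of 9. The genes with the largest called differences included the cell surface genes Emb, embigin, with 5.31 ± 0.60, and Cd28, a T cell receptor partner, with 4.69 ± 0.46, both called in the gastrocnemius and not in the diaphragm.

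Of 11 fibrillar and related collagens, 6 fell in the diaphragm, where 3.54% of all genes did, and 1 rose and 3 fell in the gastrocnemius. Median changes were -0.74 in the diaphragm and -0.20 in the gastrocnemius, and the latter was 0.10 with total-count scaling. The difference was higher for 3 of the 11 and lower for none. Between 9 and 24 months it was higher for 1 and lower for 2, at medians of -0.37 in the diaphragm and -0.52 in the gastrocnemius. Col3a1, type III collagen, measured 475, 669.8 and 896 CPM in the young and 129, 295 and 414 CPM in the old diaphragm, with no overlap. Gastrocnemius levels were 358, 411 and 495 CPM at 6 months and 252, 323 and 799.7 CPM at 27 months, with the highest old library above and the lowest below all young ones. The difference was 1.06 ± 0.21 (limma-voom, Benjamini-Hochberg adjusted p = 5.38e-05), and 1.39 with the axis score. Between 9 and 24 months it was 0.49 ± 0.15 and not called. Of 25 matrix glycoproteins and proteoglycans, 9 had a higher difference and none a lower one. With the axis score the counts were 10 and 0, where 8.02% of all genes were higher. They were also 10 and 0 with total-count scaling, where 3180 of the 11977 genes tested were higher. Opposite changes met the looser rule in 3 of them, Ogn, Lum (lumican) and Aspn (asporin), all small leucine-rich proteoglycans. Lum measured 30.0, 43.4 and 49.9 CPM in the young and 49.0, 55.1 and 75.5 CPM in the old gastrocnemius, and 101, 141 and 158 and 72.8, 80.0 and 126 CPM in the diaphragm. Aspn changed by 1.47 ± 0.16 and -0.41 ± 0.12, a difference of 1.88 ± 0.20. Marker genes of fibro-adipogenic cells, which make matrix, had summed levels of 2031 to 2537 CPM in the young and 1479 to 2069 CPM in the old diaphragm and 1162 to 1471 and 1289 to 2008 CPM in the gastrocnemius. Their part in the matrix values was not tested.

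Of 32 interferon-stimulated genes tested, 13 rose in the gastrocnemius, 3 rose and 2 fell in the diaphragm, and 9 had a higher difference. With the axis score 7 had a higher one, where 8.02% of all genes did. With total-count scaling 18 had a higher one, where 3180 of the 11977 genes tested did. Between 9 and 24 months 1 of the 32 had a higher and 1 a lower difference. Of 20 complement genes 14 rose in the gastrocnemius and 2 in the diaphragm, and 5 had a higher and 1 a lower difference. Of 16 genes of major histocompatibility complex class I presentation 8 and none rose. B2m, its light chain, measured 213, 249.8 and 325 CPM in the young and 697, 1132 and 1552 CPM in the old gastrocnemius, and 378, 429.7 and 491 and 426, 541 and 851 CPM in the diaphragm. The gastrocnemius began below the diaphragm and ended above it for most libraries, with a difference of 1.85 ± 0.14. Macrophage markers rose for 15 of 16 genes in the gastrocnemius and 2 in the diaphragm, at median changes of 0.93 and 0.43. The difference was called higher for 6 of the 16 and lower for none. Their summed level ranged from 146 to 223 CPM in the young and 284 to 605 CPM in the old gastrocnemius. In the diaphragm it ranged from 265 to 673 and 418 to 1093 CPM, and no marker was at 0 in any group. T cell markers rose for 6 and 2 of 8, at medians of 1.11 and 0.44, and 2 of the 8 had a higher difference. The part of these cells in the immune gene values was not tested. Cell cycle genes had 16 of 33 up in the gastrocnemius and 1 up and 3 down in the diaphragm, with 12 higher and 1 lower difference, and 6 higher with the axis score. The lower one was Tpx2, a spindle protein, at -1.98 ± 0.16, while Cenpf and Ccne2 were called in opposite directions.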

How the data were processed

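RNA-seq reads of whole muscle were counted by the authors with the ArrayStudio pipeline on a rat reference older than GRCr8 with an in-house gene model based on RefSeq, from strand-specific, ribosome-depleted libraries of 76-base read pairs. The deposited values are raw counts per gene, with no normalization. Each file held 17870 gene lines and 17315 symbols. Lines of the same symbol were summed (494 symbols, 2.53% of counts), so copies of these genes are not told apart. Groups were read from the sample titles.

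The 4 groups were fitted with limma-voom (limma 3.58.1, edgeR 4.0.16, R 4.3.3) after filterByExpr by group (minimum count 10, minimum total 15) and TMM scaling, with a prior count of 0.5, two-sided. The p-values measure the spread between these samples. No files with identical counts were found. Gastrocnemius libraries carry a separate range of description numbers, so levels, though not the age changes within a muscle, cannot be told apart from that range. Ribosomal RNA genes took 0.44% to 5.31% of counts in the gastrocnemius at 6 months and 0.60% to 6.11% at 27 months. In the diaphragm libraries they took 0.18% to 0.41%. The part of this spread in the age changes was not tested. Replicate numbers were not used to pair the muscles. Of pairs with the same number, 1 of 10 at 6 months and 4 of 11 at 27 months had a correlation of their deviations over 0.1. A weak correlation between different muscles cannot show whether the numbers name the same rats.

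The members and the 60 lists were chosen with earlier results of these data known. Named genes were, with a mean log2 CPM over 0, the 15 largest differences in each opposite set and the 5 largest called differences of each sign, then up to 4 called genes of each list with any opposite member, and Chrnd, Musk, Ncam1 and Esrra. Further genes of the opposite sets were named for their role after their values were seen. Promoters came from RefSeq (GRCr8).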

Additional observations from a re-analysis of the deposited data

Results flagged for a closer look

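The 10 gastrocnemius libraries of 6 months were searched for a library far from the others, by Dixon's test, in 211 values. It found 11, which is close to the rate of about 1 in 20 that chance gives, though values from the same 10 libraries are not independent. The farthest library was taken for each gene on its own and need not be the same one. For Ankrd1, a stretch-responsive ankyrin repeat gene, it stood at 3.44 log2 CPM, beside 4.37 in the next library. For Chrna1, the alpha subunit of the acetylcholine receptor, it stood at 4.30, for the matrix gene Dcn at 9.16, for Nes, nestin, at 4.58, for the integrin Itgb1 at 7.55, and for Mylk2 at 11.23. For the proteasome subunit Psma3 it was 4.90 and for the complement gene C6 it was -0.85. Low-count genes were Cdh19 at -3.51, P4ha3 at -4.40 and RT1-CE16 at -2.45. Groups of 11 or 12 libraries were not searched.

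The change with age differed between the muscles, by the interaction contrast, for 2732 genes between 6 and 27 months and for 1361 genes between 9 and 24 months, and 89 genes were called in opposite directions.

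Outside the 4 groups, the library axis score was low at 18 months. Libraries of this age entered no test of the age change but were among the 111 that define the axis in the diaphragm and gastrocnemius. Its mean was -8.5 in the diaphragm beside 0.00 at 6 months, -14.8 in the tibialis anterior beside -2.43, and -2.8 in the soleus beside 6.19. What moved the score at this age was not tested.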

How the results depend on the processing

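The difference was called for 2732 genes, the gastrocnemius change for 2643, the diaphragm change for 873, and opposite directions for 89. With Bonferroni these counts were 1354, 1675, 349 and 3, with a 2-fold threshold 987, 1029, 255 and 7, and with no fold threshold 6459, 7301, 5086 and 1316. Opposite genes numbered 153 with total-count scaling (149 up in the gastrocnemius, 78 shared with the 89), 51 with sample quality weights, 60 with edgeR's quasi-likelihood test and 62 with DESeq2. Total-count scaling also moved the share of calls that were higher from 60.9% to 91.4% for the difference and from 63.0% to 90.2% for the gastrocnemius, and shifted the median difference of all genes to 0.29. Alternatives added after the data were seen gave 1475 differences and 14 opposite genes with the axis score (799 differences between 9 and 24 months), 47 opposite genes without the 2 gastrocnemius libraries of 6 months of lowest score, and 137 without the 3 diaphragm libraries of 27 months of highest score. With 24 in place of 27 months they gave 1483 differences, 324 diaphragm calls and 5 opposite genes. Leaving out each library in turn gave 2422 to 2945 differences, 65 to 105 opposite genes, 2490 to 2847 gastrocnemius and 813 to 931 diaphragm calls. A replicate block on the shared numbers gave 2756 differences, 2648 gastrocnemius calls, 871 diaphragm calls and 88 opposite genes, and per age 1 of 10 and 2 of 11 libraries correlated best with their own number. Of 210 named differences, 4 changed sign with the axis score, Cdh19 at -0.054, Chordc1 at -0.23, Psma3 at -0.13 and Sgcd at -0.013, and 69 lost their call. The cause was not tested. Low-count genes such as Hoxc10 in the diaphragm are limited by depth.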

Other observations

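Genes of the Tgf beta and Bmp pathway, which restrain or promote muscle growth through secreted ligands and their binders, moved in both senses. Of 31 tested, 11 rose and 3 fell in the gastrocnemius and 2 rose in the diaphragm, with 12 higher and 5 lower differences beside 13.9% and 8.93% of all genes. Nog, the Bmp antagonist noggin, was the clearest case of an opposite change outside the threshold. It measured 3.31, 4.16 and 4.91 CPM in the young and 1.21, 1.98 and 2.83 CPM in the old gastrocnemius, with no overlap, and 4.10, 6.32 and 9.84 and 7.25, 9.27 and 12.0 CPM in the diaphragm, where the ages overlapped. Its difference was -1.55 ± 0.19 (log2, limma-voom, Benjamini-Hochberg adjusted p = 6.12e-09), -1.55 with the axis score and -1.47 ± 0.23 between 9 and 24 months. Fst, follistatin, which binds myostatin and activin, had a difference of 2.11 ± 0.28 in the other sense.

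Circadian clock genes changed in both muscles. Of 15 tested, 6 rose and 4 fell in the diaphragm and 4 rose and 4 fell in the gastrocnemius, with 1 higher and 8 lower differences, 2 and 3 with total-count scaling. Ciart, a repressor of the clock, measured 0.125, 0.61 and 3.76 CPM in the young and 5.23, 11.9 and 18.4 CPM in the old diaphragm, with no overlap, and 0.492, 2.52 and 12.4 and 3.82, 7.95 and 10.9 CPM in the gastrocnemius, with overlap. Dbp, a clock-controlled transcription factor, rose by 2.54 in the diaphragm and 1.41 in the gastrocnemius (log2). Between 9 and 24 months 1 clock gene had a lower difference and none a higher one. By the study's methods each age group was collected on a single day, within a window from morning to just after noon, and the hour for each rat within that window is not given in the sources used here.

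Markers of neighbouring tissues also moved. The summed level of 7 mesothelium markers, those of 11 listed that the files hold, was 12.2 to 111 CPM in the young and 9.98 to 113 CPM in the old diaphragm, and 0.268 to 1.03 CPM in the young and 3.34 to 29.3 CPM in the old gastrocnemius, with Wt1 at 0 in the young. Adipocyte markers rose for 4 of 9 in the gastrocnemius and for none in the diaphragm, where 1 fell. Liver transcripts reached 142 CPM in an old gastrocnemius library beside a median of 1.46 CPM. The part of these tissues in any gene's change was not tested.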
